A study of Mus musculus with 5 samples.

Results

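The promoters of genes for steroid and bile acid metabolism, for retinoid metabolism and for nuclear receptors were examined for the stretches of chromosome they contact in the supporting cells of the fetal mouse gonad. The genes were chosen by symbol from the baits on chromosomes 1 to 9, where a bait is a captured fragment at a promoter. The symbols were those of the Nr, Esrr, Rar, Rxr, Ppar and Ror receptors, of the Hsd, Srd5a, Star, Stard, Cyp11, Cyp19, Cyp27 and Akr1 genes, and of the Cyp26, Aldh1a, Crabp and Rbp genes. Nr5a1, Nr6a1 and Cyp26b1 were left out by the rule. This gave 44 genes of the 9097 gene symbols among the baits of the series. They fall into 15 receptor genes, 22 genes of steroid and bile acid metabolism and 7 genes of retinoid metabolism. A few belong by name only, such as Ppargc1a, a coactivator of receptors, Nr2c2ap, a receptor-associated protein, and Hsdl1 and Hsdl2, dehydrogenase-like proteins.

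Sertoli cells, the supporting cells of the testis, came from embryonic gonads at stage E13.5 and were sorted by the Sox9IRES-GFP reporter, in which GFP follows the Sox9 locus. Pre-granulosa cells, which take that role in the ovary, came from gonads of the same stage and were sorted by an mCherry reporter named Enh8, which the labels do not explain further. There were 3 Sertoli libraries and 2 pre-granulosa libraries, each from about 100000 sorted cells. In both groups the chromatin was cut with DpnII, ligated and enriched for promoter fragments (capture Hi-C). Each deposited table holds 1 CHiCAGO score per contact and cell type, with all libraries of a cell type behind 1 column, so no value below has a replicate error and no difference has a p-value. A CHiCAGO score rises as the read pairs between a bait and another bin exceed those expected at that distance. A contact counted as a call from a score of 5 upwards, and a table lists a contact only where 1 of the cell types reached 5. The tables hold contacts and no expression, so the labelled cell types could not be checked against their marker genes. The libraries' read depth is not given by the scores. Where 2 scores or 2 numbers of calls stand together below, the first belongs to Sertoli cells and the second to pre-granulosa cells.

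Nuclear receptors are transcription factors that bind DNA at short hexamers and are switched by small lipophilic ligands, among them steroids, oxysterols, fatty acids and retinoic acid. Steroid hormones are made from cholesterol, which the carrier StAR moves into mitochondria for the side-chain cleavage enzyme CYP11A1, and CYP19A1 (aromatase) turns androgens into estrogens. Retinoic acid is made from retinaldehyde by the ALDH1A enzymes, and cellular binding proteins carry retinol (RBP) and retinoic acid (CRABP). In the fetal ovary retinoic acid acts on germ cells as they enter meiosis, and in the fetal testis steroids are made mainly by Leydig cells, which lie outside the cords that the Sertoli cells form.

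Promoter sequences are shown for 5 genes whose long-range contacts are described below. No promoter was matched for Star or Aldh1a3. Each is the 250 bases before the start site in RefSeq (GRCm38.p6, the mm10 build of the tables), 5' to 3' on the gene's strand, and each lies whole inside the captured fragment. They are Cyp11a1 (chr9:58014702-58014951, plus strand), Cyp19a1 (chr9:54193744-54193993, minus strand), Aldh1a2 (chr9:71215539-71215788, plus strand), Nr5a2 (chr1:136960449-136960698, minus strand) and Rxra (chr2:27709042-27709291, plus strand, at the bait Rxra-202 and not at Rxra-203, from which the farthest contact starts). Capitals mark AGGTCA, the core hexamer of nuclear receptor sites, or its reverse complement TGACCT.
Cyp11a1: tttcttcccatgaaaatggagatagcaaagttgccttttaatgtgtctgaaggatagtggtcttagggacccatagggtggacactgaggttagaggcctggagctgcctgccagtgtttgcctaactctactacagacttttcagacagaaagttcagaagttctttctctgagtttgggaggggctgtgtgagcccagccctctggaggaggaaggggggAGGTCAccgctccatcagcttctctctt
Cyp19a1: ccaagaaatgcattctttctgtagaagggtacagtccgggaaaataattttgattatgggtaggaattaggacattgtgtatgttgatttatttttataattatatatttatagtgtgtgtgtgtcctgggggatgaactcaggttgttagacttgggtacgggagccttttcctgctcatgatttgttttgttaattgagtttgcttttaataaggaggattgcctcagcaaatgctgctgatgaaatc
Aldh1a2: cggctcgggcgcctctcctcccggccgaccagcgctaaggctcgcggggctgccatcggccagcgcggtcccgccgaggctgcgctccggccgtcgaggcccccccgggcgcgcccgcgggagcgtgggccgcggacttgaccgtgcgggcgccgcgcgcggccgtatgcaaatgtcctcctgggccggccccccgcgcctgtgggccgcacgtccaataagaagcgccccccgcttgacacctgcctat
Nr5a2: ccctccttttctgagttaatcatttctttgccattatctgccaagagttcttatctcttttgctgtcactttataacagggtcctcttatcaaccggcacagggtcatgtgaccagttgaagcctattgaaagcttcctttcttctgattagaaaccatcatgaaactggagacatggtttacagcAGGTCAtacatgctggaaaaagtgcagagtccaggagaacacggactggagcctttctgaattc
Rxra: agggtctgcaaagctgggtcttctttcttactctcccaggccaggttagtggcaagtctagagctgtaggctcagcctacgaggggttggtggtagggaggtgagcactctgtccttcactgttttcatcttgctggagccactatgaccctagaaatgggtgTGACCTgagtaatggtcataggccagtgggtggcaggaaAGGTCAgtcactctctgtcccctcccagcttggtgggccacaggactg
The match in Cyp11a1 begins at position -28 from the start site, and that in Nr5a2 at position -64. Rxra holds AGGTCA at -48 and TGACCT at -87. The windows of Cyp19a1 and Aldh1a2 do not contain these letters. RefSeq promoters were matched for 37 of the 44 genes. Of their 46 promoters, 10 (21.7%, 95% Wilson interval 12.3 to 35.6) held AGGTCA on either strand, beside 14.3% of all 18612 promoters on chromosomes 1 to 9. The longer form TCAAGGTCA, which contains AGGTCA and is the preferred site of NR5A and estrogen-related receptors, was found in 0 of the 46 promoters and in 0.42% of all. A match of letters describes the sequence and does not show binding.

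With the original baits, which are single fragments with a median length of 759 bp, 33 of the genes had contacts from 48 baits. They had 164 listed contacts. Of these, 140 were Sertoli calls and 57 were pre-granulosa calls, while over all original baits on the same chromosomes the background was 80.2% and 41.5% of the listed contacts. Sertoli calls outnumbered the others by a ratio of 2.46 (95% interval 1.81 to 3.34), and the ratio over all baits, 1.93, lay inside that interval. Both cell types called 33 contacts (background 21.7%), 107 were called only in Sertoli cells (background 58.5%) and 24 only in pre-granulosa cells (background 19.8%). Sertoli calls were in excess over the table as a whole. The interval of a ratio was made from the Wilson interval of the Sertoli share of all calls. It counts shared contacts on both sides and treats touching bins as independent. These intervals cover counting error only.

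The extended baits are bins with a median length of 5324 bp, and they gave contacts to 43 of the genes from 63 baits. Of 271 listed contacts, 215 were Sertoli calls (background 78.7%) and 149 were pre-granulosa calls (background 55.9%), a ratio of 1.44 against 1.41 over all baits. Shared contacts numbered 93 (background 34.6%), Sertoli-only contacts 122 (background 44.1%) and pre-granulosa-only contacts 56 (background 21.3%). The nearest contact lay 10.1 kb from its bait, against 2.94 kb with the original baits, so the closest bins of the first table have no counterpart in the second. Of the 44 genes, 32 were in both tables, Hsd17b12 was only in the original one and 11 were only in the extended one.

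Among the 33 genes with original baits, 15 had only Sertoli calls, 2 (Hsd17b12 and Nr4a2) had only pre-granulosa calls and 16 had calls in both. More Sertoli calls were seen for 27 genes, more pre-granulosa calls for 4 and equal numbers for 2. Counts by gene were not made over all baits, so in both tables only the counts by bait have a background. The gene counts therefore do not show a trait of these genes. By bait, 39 of 48 (81.3%, 68.1 to 89.8) had more Sertoli calls, an interval above the 65.2% over all baits, although baits of the same gene share contacted bins, and 5 had more pre-granulosa calls (22% over all baits). At a score of 7 the share with more Sertoli calls was 69.6% (49.1 to 84.4), against 67.3% over all baits. The split was much closer to even with the extended baits. There, 40 of 43 genes had calls in both cell types, 37 had at least 1 shared contact, and 23 genes had more Sertoli calls against 14 with more pre-granulosa calls. By bait, 30 of 63 (47.6%, 35.8 to 59.7) had more Sertoli calls (background 53.6%) and 18 had more pre-granulosa calls (background 26.4%). Aldh1a2 was the only gene with Sertoli calls alone, and Stard5 and Stard9, lipid-transfer domain proteins, had pre-granulosa calls alone.

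**Figure D1:**
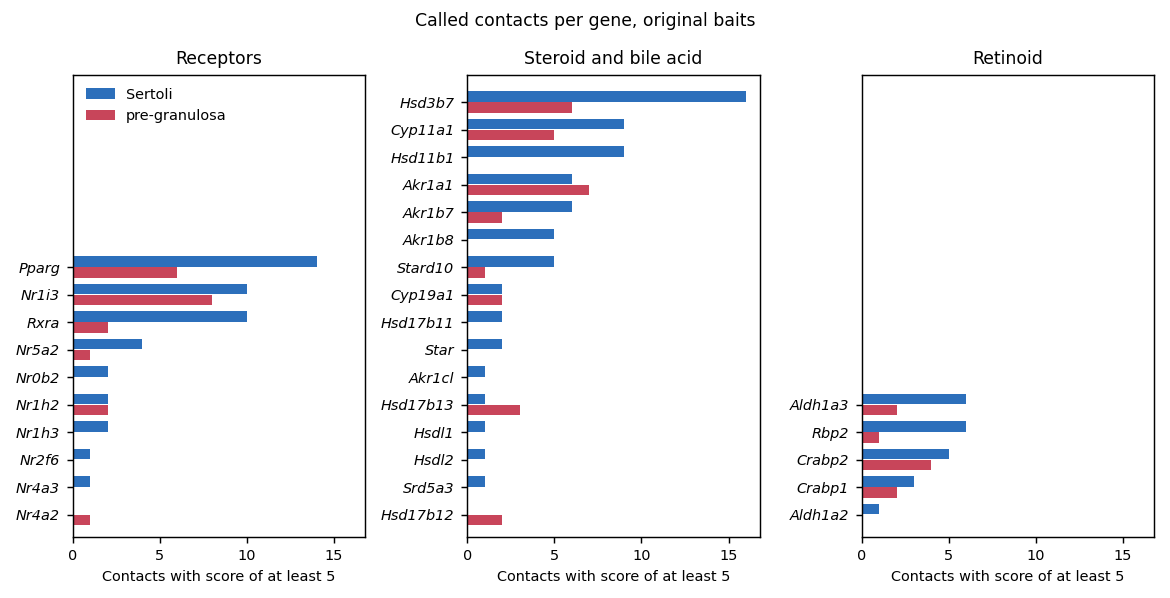
Bars give the number of contacts with a score of at least 5 per gene with the original baits, in Sertoli cells (blue) and pre-granulosa cells (red), for receptors, steroid and bile acid genes, and retinoid genes. Of the 33 genes 31 are drawn, and the blue bar is the longer one for 25 of them. The most Sertoli calls are those of Hsd3b7 (16 and 6), Pparg (14 and 6), Nr1i3 (10 and 8) and Rxra (10 and 2).

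Most contacts called in only 1 cell type had a score of at least 1 in the other. Of the 107 Sertoli-only contacts, 37 (34.6%, against 33.9% over all baits) reached a score of 3 in pre-granulosa cells, and 22 (20.6%, against 23.1%) stayed under 1. Among those, 9 (8.41%, against 7.17%) were listed at 0, which may also mean that no usable value was obtained. Of the 24 pre-granulosa-only contacts, 11 (45.8%, against 48.3% over all baits) reached 3 in Sertoli cells, 2 stayed under 1 and 0 were listed at 0. These shares were close to those over all baits. Sertoli calls lay a median of 38.4 kb from the bait (24.2 to 52.9) and pre-granulosa calls 20.6 kb (9.81 to 51.6), beside 42.6 and 26.0 kb over all baits. No contact of these genes reached 300 kb in either table.

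**Figure D2:**
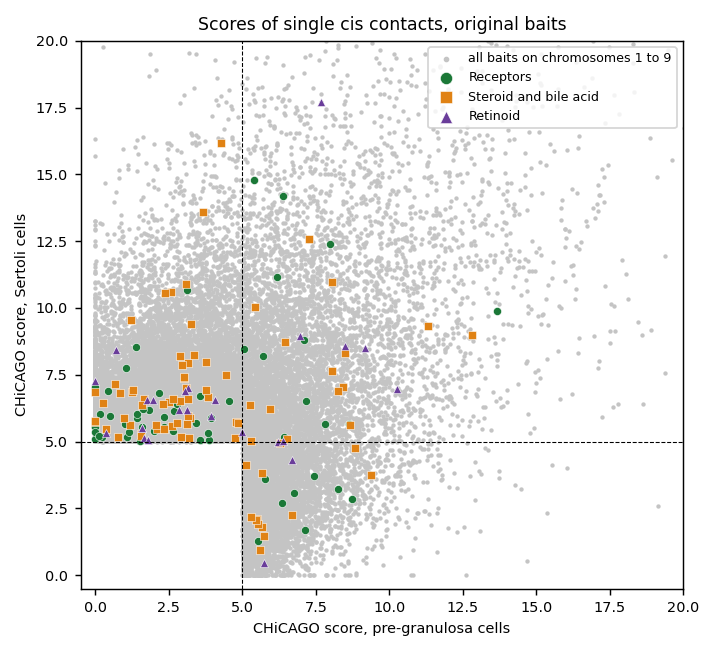
Each symbol is 1 contact of an original bait, with its pre-granulosa CHiCAGO score on the x axis and its Sertoli score on the y axis, coloured by gene group, over all contacts of baits on chromosomes 1 to 9 in grey. Dashed lines mark a score of 5, both axes end at 20, and most of the coloured symbols (107 of 164) lie in the upper left field, called in Sertoli cells only.

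The receptor genes had 51 Sertoli calls, 20 pre-granulosa calls and 12 shared contacts with the original baits, a ratio of 2.55 (1.53 to 4.25) that holds the 1.93 over all baits. Their Sertoli calls lay a median of 64.6 kb away (34.9 to 80.1) and their pre-granulosa calls 20.8 kb (9.08 to 50.5). The medians over all baits, 42.6 and 26.0 kb, lay inside these intervals. With the extended baits the numbers were 76, 57 and 35, a ratio of 1.33 beside 1.41 over all baits.

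Rxra encodes a retinoid X receptor, the partner with which retinoic acid, PPAR and LXR receptors bind DNA. It was captured at 5 original baits between chr2:27675259 and chr2:27725502, with 10 Sertoli calls, 2 pre-granulosa calls and 0 shared contacts. Of the Sertoli contacts, 7 lay at lower coordinates, which is upstream of the baits on this plus-strand gene, and 4 of those were at 100 kb or more. The farthest joined Rxra-203 to the bin chr2:27556526-27561872, 152 kb away, which holds no RefSeq gene. Its score was 7.06 in Sertoli cells and it was listed at 0 in pre-granulosa cells, an asinh difference of 2.65 (asinh, the inverse hyperbolic sine, behaves like a logarithm for large scores and allows 0). Rxra-207 contacted a bin 146 kb upstream at 6.02 and 0.15, and Rxra-208 a bin 118 kb upstream at 5.20 and 0.11. These upstream contacts thus started from different promoters of the gene and ended in separate bins. Both pre-granulosa calls came from Rxra-204, to the bins next to it, at scores of 5.78 and 6.34 against 3.60 and 2.69 in Sertoli cells. That bait had 1 Sertoli call against its 2, and with the extended baits or at 50 kb and more the order turned to 1 more Sertoli call. With the extended baits the gene had 16 Sertoli calls, 6 pre-granulosa calls and 4 shared contacts. At 100 kb or more there were 5 Sertoli calls and 1 pre-granulosa call. In the extended table the bins from 149 to 161 kb upstream of Rxra-203 scored 6.56, 5.99 and 6.74 in Sertoli cells and 0, 2.22 and 0 in pre-granulosa cells. Rxra-203 also contacted Rxra-207 and Rxra-208, 10.8 kb away, at 16.2 and 14.2, so the contact between the gene's own promoters was strong in both cell types.

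Pparg encodes the fatty acid receptor PPARγ. Pparg-201 (chr6:115420744-115422299) had 12 Sertoli and 6 pre-granulosa calls, and Pparg-207 had 2 Sertoli calls. The highest scores belonged to a bin inside the gene 9.08 kb downstream (12.4 in Sertoli and 7.97 in pre-granulosa cells) and to a gene-free bin 91.0 kb upstream (11.2 and 6.18). Beside the latter, 3 further upstream bins, from 68.1 to 85.4 kb, were called in Sertoli cells only, at 5.40 to 5.55. Bins inside the gene but upstream of Pparg-201 mostly ran the other way, with the higher score in pre-granulosa cells for 4 of 5. At 23.6 kb upstream the scores were 1.27 and 5.52, and with the extended baits 1.79 and 8.48. At 44.5 kb they were 3.21 and 8.24. The Sertoli excess of Pparg-201 turned at a score of 7, with equal numbers of calls over the table and with the extended baits, to -1, -3 and -1 calls. Its count of calls therefore has no stable direction. In the extended table Pparg-201 was also reached from 3 other promoters of the gene, with scores of 18.3 and 3.99 from Pparg-204, 9.85 and 8.57 from Pparg-207 (4.15 and 5.83 in the other direction), and 2.29 and 6.48 from Pparg-202.

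Nr5a2 encodes LRH-1, the close relative of the gonadal factor NR5A1. Its bait Nr5a2-201 (chr1:136960002-136960748) holds the sequence shown above. It contacted bins 257 kb and 270 kb upstream of this minus-strand gene, at 5.34 and 0 and at 6.87 and 0.41. The second promoter, Nr5a2-202, contacted a bin 246 kb upstream at 5.55 and 0. All 3 ends lay between chr1:137192836 and chr1:137232686, beyond the gene's span. The only contact called in both cell types was next to the promoter, at 8.48 and 5.05. From the extended bait the contact at 270 kb was again called in Sertoli cells only (5.63 and 0.07). The contacts at 257 and 246 kb were not listed with the extended baits. The contact between the gene's own promoters, 11.3 kb apart, had the higher score in pre-granulosa cells from either end, at 9.78 and 24.5 from Nr5a2-202 and at 1.24 and 5.60 from Nr5a2-201. That contact ran the other way from the far ones and from the contact next to Nr5a2-201.

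Nr1i3 encodes CAR, a sensor of foreign compounds that acts in the liver. Its counts were close, with 10 Sertoli calls, 8 pre-granulosa calls and 7 shared contacts, all at lower coordinates, upstream of this plus-strand gene. A gene-free bin 9.25 kb upstream scored 9.90 in Sertoli and 13.7 in pre-granulosa cells, so that both scores were high. Its lower score was the highest of any shared contact of these genes with the original baits. The largest pre-granulosa difference from this bait was 104 kb upstream, at 1.70 and 7.11. The only listed extended bin that overlaps it, by 149 bp, was shared at 19.5 and 21.97, and the difference moved from -1.36 to -0.12 on the asinh scale. A shared contact also ended in Cfap126, 96.5 kb away (8.79 and 7.08).

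The LXR genes Nr1h2 and Nr1h3, receptors for oxysterols, both had few contacts with the original baits. Nr1h2-201 had 2 Sertoli calls (5.39 and 5.17, with 2.64 and 0.23 in pre-granulosa cells) and 2 pre-granulosa calls (8.74 and 6.76, with 2.86 and 3.08 in Sertoli cells), none of them shared. Nr1h3-204 contacted 2 adjacent bins in Spi1, the gene of a blood-cell transcription factor, 83.9 and 79.2 kb away. The scores there were 6.71 and 3.54, and 6.17 and 1.84. With the extended baits they had 7 and 8 listed contacts, and Nr1h2 turned to 3 Sertoli and 6 pre-granulosa calls. From its extended bait, Nr1h3 contacted the Spi1 promoter 96.4 kb away with the higher score in pre-granulosa cells, 11.02 against 15.8. The farther of the 2 Spi1 bins above stayed Sertoli-only from that bait, at 5.19 and 3.49. The nearer one did not. The extended bin with the same start also carries a Mybpc3 promoter and was shared, at 21.2 and 15.4.

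Nr2f6 and Nr4a2, orphan receptors, had 1 contact each with the original baits. Nr2f6-201 contacted the promoter of Ccdc194, 143 kb away, at 5.53 and 0, which was the only contact between promoters in the original table for these genes. Nr4a2-202 contacted its own gene 4.94 kb away at 3.73 and 7.45. In the extended table Nr2f6 turned to 1 Sertoli and 2 pre-granulosa calls, and Nr4a2 had 1 shared contact, at 8.65 and 9.62. With the original baits Nr0b2, which encodes the repressor SHP, had 2 Sertoli calls and Nr4a3 had 1, with pre-granulosa scores of at most 1.42. Extended baits gave each of the genes 1 shared contact. The highest pre-granulosa scores there were 5.05 for Nr0b2 and 8.63 for Nr4a3. Nr3c2, the mineralocorticoid receptor gene, had a single contact, with its own further promoter in the extended table, at 9.97 and 7.01.

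**Figure D3:**
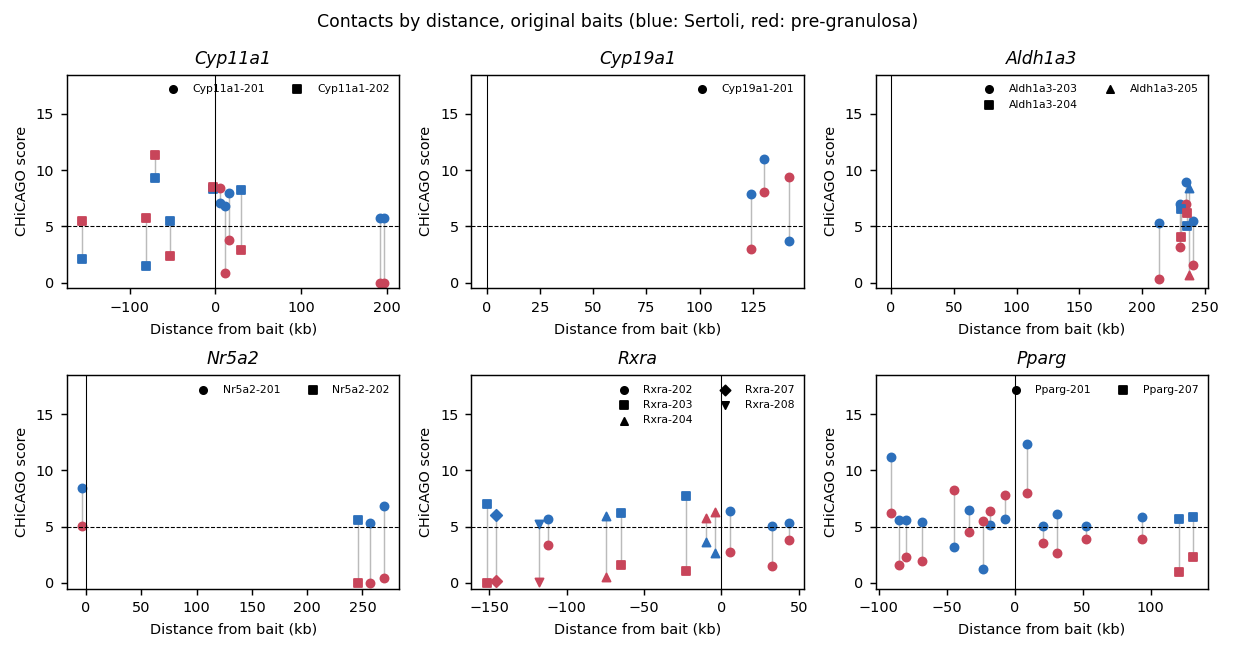
For 6 genes, each pair of points joined by a line is 1 contact of an original bait, at its distance from the bait in kb along genome coordinates (x axis) and its CHiCAGO score (y axis) in Sertoli cells (blue) and pre-granulosa cells (red). Symbols mark the promoter, the dashed line a score of 5 and the vertical line the bait, and the far contacts of Cyp11a1 (192 and 197 kb) and Nr5a2 (246 to 270 kb) have red points at or near 0.

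Genes of steroid and bile acid metabolism had 67 Sertoli calls, 28 pre-granulosa calls and 15 shared contacts with the original baits, a ratio of 2.39 (1.54 to 3.71) beside 1.93 over all baits. The median distances were alike, 29.9 and 29.8 kb, beside 42.6 and 26.0 kb over all baits. With the extended baits the numbers were 111, 76 and 50, a ratio of 1.46 beside 1.41 over all baits.

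Cyp11a1, the gene of the enzyme that starts steroid synthesis, was captured at 2 promoters with 9 Sertoli calls, 5 pre-granulosa calls and 3 shared contacts. From Cyp11a1-201 (chr9:58014513-58015178), whose sequence is shown above, 2 touching bins at chr9:58204470-58209517 and chr9:58209518-58214833 were contacted, 192 and 197 kb downstream. They scored 5.74 and 5.78 in Sertoli cells and were listed at 0 in pre-granulosa cells, asinh differences of 2.45 and 2.46. The first lies in the RefSeq gene 1600029O15Rik, and the second holds none. With the extended baits the overlapping bins scored 10.9 and 4.77, and 5.59 and 0, and the first of them carried promoters of Islr2 and Islr, genes of membrane proteins with leucine-rich repeats. Read from that promoter bin the pair scored 11.3 and 5.17, just over the threshold in pre-granulosa cells. From Cyp11a1-202 the same extended bin scored 7.96 and 1.61. The Sertoli score was thus the higher one here from both promoters. The neighbouring Islr2 bin differed, at 4.29 and 6.51 from Cyp11a1-201 and at 7.88 and 0.27 from Cyp11a1-202. In the other direction Cyp11a1-202 contacted a gene-free bin 71.0 kb upstream at 9.31 and 11.3, which was among the strongest shared contacts, and with the extended baits it scored 9.10 and 11.5. A bin in Ubl7, 81.5 kb upstream, was called in pre-granulosa cells only, at 1.45 and 5.75, or 1.15 and 7.27 with extended baits. With the original baits the upstream contacts of Cyp11a1 therefore had the higher pre-granulosa scores, except that with Sema7a, 52.9 kb upstream, at 5.47 and 2.33.

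Star encodes the cholesterol carrier. Star-201 (chr8:25808075-25808491) had 2 Sertoli calls and 0 pre-granulosa calls. The near one, 9.12 kb away, scored 7.51 and 4.44. The far one ended 189 kb away at chr8:25994323-25999552, in Fnta and Gm31402, at 6.84 and 0, an asinh difference of 2.62. With the extended baits the overlapping bin, which carries a Pomk promoter, scored 6.13 and 0, so this Sertoli-only contact was listed in both tables. The extended bait had 3 Sertoli calls, 2 pre-granulosa calls and 1 shared contact. Its pre-granulosa calls were with Lsm1 (3.87 and 5.74, or 5.03 and 5.60 read from Lsm1) and with Ash2l (5.16 and 7.05), the shared one.

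Cyp19a1, the aromatase gene, had 3 contacts, all in the gene Gldn, which encodes the adhesion protein gliomedin and lies upstream of this minus-strand gene. They were 124, 130.0 and 142 kb from Cyp19a1-201 (chr9:54193309-54194083). In Sertoli cells the scores were 7.86, 10.96 and 3.74, against pre-granulosa scores that were 2.96, 8.04 and 9.36. The cell types shared the middle bin, and on either side of it the higher score changed from Sertoli cells to pre-granulosa cells. The extended baits gave 7.15, 10.6 and 3.07 against 2.76, 7.77 and 9.04 for the same bins. They added 2 pre-granulosa calls, at the Gldn promoter 92.9 kb away (1.87 and 5.52) and inside Cyp19a1 (2.18 and 5.19). Read from Gldn, the contact with its promoter was a call in both cell types, at 5.67 and 9.58.

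Hsd3b7 encodes an enzyme of bile acid synthesis and showed the largest Sertoli excess with the original baits, 16 calls against 6 from Hsd3b7-201 (chr7:127800322-127800997). Its bins ran through Setd1a on one side and Stx4a, Zfp668, Zfp646, Prss53 and Prss36 on the other, up to 139 kb away. At a bin in Stx4a, 37.6 kb from the bait, the scores were 13.6 and 3.65. A second Stx4a bin at 44.3 kb scored 8.99 and 12.8, and with the extended baits the overlapping bin reversed to 13.6 and 8.80. The extended bait had 16 against 8 calls. Its contact with promoters of Zfp668 and Zfp646, 74.2 kb away, scored 17.5 and 0, the largest asinh difference of these genes in that table (3.56), but read from the other end the pair scored 9.75 and 15.2, a call in both cell types with the order turned. With the original bait the excess of 10 calls fell to 3 at a score of 7, 3 at 10, 5 with equal numbers of calls, 3 at 50 kb and more, and 6 with touching bins merged. This promoter lies among many genes, and touching bins were counted separately.

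Hsd11b1, whose product regenerates active glucocorticoid, had 9 Sertoli calls and 0 pre-granulosa calls over 4 original baits. Pre-granulosa scores for these contacts ran from 0.67 to 3.17. Extended baits, which join 4 of its promoters into 1 bin, gave it 20 Sertoli calls, 11 pre-granulosa calls and 7 shared contacts. The absence of pre-granulosa calls therefore did not carry over to the larger baits, while more calls in Sertoli cells did.

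The Hsd17b genes act on sex steroids, retinoids or lipids, and 2 of the 4 genes with more pre-granulosa calls are among them. Hsd17b13-201 had 1 Sertoli and 3 pre-granulosa calls, Hsd17b12-201 had 0 and 2, while Akr1a1-201, an aldehyde reductase gene and the third of those 4, had 6 and 7. The largest difference among these with the original baits was between Hsd17b12-201 and a bin in Mir670hg 8.22 kb away, at 0.94 and 5.61, an asinh difference of -1.59. Hsd17b13-201 contacted bins within its gene at 2.25 and 6.68 and at 6.36 and 5.25, and a bin outside it at 1.91 and 5.52. Akr1a1-201 shared 4 of its contacts, and its order turned at higher thresholds, to 2 more Sertoli calls at a score of 7 and 1 more at 10. Hsd17b11, next to Hsd17b13, had 2 Sertoli calls and 0 pre-granulosa calls. In the extended table both neighbours contacted the Nudt9 promoter, at 15.0 and 11.1 from Hsd17b11 and at 9.88 and 8.17 from Hsd17b13.

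The aldo-keto reductase genes Akr1b3, Akr1b8, Akr1b10 and Akr1b7 lie side by side on chromosome 6 and are close copies, so reads may be split or lost between them. Akr1b8-201 had 5 and 0 calls, and Akr1b7-201 had 6 and 2. Both contacted the same bins in Akr1b3 (6.99 and 3.10 from Akr1b8, 5.30 and 1.55 from Akr1b7) and in Gm13857 (6.49 and 2.49, and 5.60 and 2.59). The excess of Akr1b7 fell to 0 with equal numbers of calls over the table. The extended bait of Akr1b10 contacted the Akr1b7 promoter at 13.1 and 10.1, but read from Akr1b7 the same pair scored 5.03 and 4.78, a Sertoli call only. Akr1b10 contacted Akr1b8 at 4.63 and 8.29.

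Among the lipid-transfer genes Stard10 had 5 Sertoli calls and 1 pre-granulosa call. Its 3 original baits all contacted the bin chr7:101310972-101316529, where the Sertoli scores were 5.70, 6.94 and 10.6 and those of pre-granulosa cells 4.86, 3.77 and 2.37. Its extended bait had 12 Sertoli and 5 pre-granulosa calls that ran through its own gene and Arap1. Stard7, a carrier of phosphatidylcholine, had 2 promoters in the extended table that differed. Stard7-201 contacted the Astl-202 promoter at 12.4 and 12.6, while the nearby Stard7-202 contacted the same bin at 10.1 and 0. Srd5a3, the polyprenol reductase gene, had 1 Sertoli call with the original baits (5.64 and 3.11). Its extended baits gave a single Sertoli call against 4 pre-granulosa calls, the highest with the Tmem165 promoter at 1.03 and 9.98. At Srd5a3-202 the order turned from 1 more Sertoli call to 2 more pre-granulosa calls.

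The retinoid genes had 22 Sertoli calls, 9 pre-granulosa calls and 6 shared contacts with the original baits, a ratio of 2.44 (1.15 to 5.21) beside 1.93. The extended ones gave 28, 16 and 8, a ratio of 1.75 beside 1.41 over all baits. Of the 22 Sertoli calls, 7 (31.8%) lay within 10 kb, 8 between 10 and 200 kb and 7 (31.8%) at 200 kb or more. Over all baits 21.7% lay within 10 kb and 6.99% at 200 kb or more. The far ones all came from Aldh1a2 and Aldh1a3, and the 6 from Aldh1a3 fell in only 4 distinct bins.

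Aldh1a2 encodes the main retinoic acid synthesising enzyme of the early embryo. Its bait (chr9:71215079-71215860) had a single contact, with the gene-free bin chr9:71445810-71451293, 233 kb downstream. The score was 7.28 in Sertoli cells, and pre-granulosa cells were listed at 0, the largest difference among the contacts of these genes with the original baits (asinh difference 2.68). With the extended bait the same bin scored 5.80 and 0. The contact was thus Sertoli-only in both tables, on the basis of 1 bin.

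Aldh1a3 has the same enzymatic role at other sites of the body. It was captured at 3 promoters, which all contacted the bin chr7:66653806-66658946 in Asb7, between 230.0 and 237 kb away. From Aldh1a3-203 the scores were 7.02 and 3.14, from Aldh1a3-204 they were 6.55 and 4.07, and from Aldh1a3-205 they were 8.42 and 0.69. The Sertoli score was the higher one from all 3 promoters, and pre-granulosa cells did not reach 5 from any. The next bin, chr7:66658947-66663978, was shared from Aldh1a3-203, at 8.94 and 6.95, and called in pre-granulosa cells only from Aldh1a3-204, at 4.9967 and 6.23. With the extended bait that joins these 2 promoters the bins were shared, at 13.2 and 9.03 and at 13.9 and 15.5, whereas Aldh1a3-205 stayed one-sided at 6.82 and 0.47. The 3 promoters lie side by side and share their contacted bins, so they are not independent.

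The binding protein genes had contacts near their promoters. Crabp2-201 (chr3:87947601-87948738) had 5 Sertoli calls, 4 pre-granulosa calls and 3 shared contacts. The bin 8.85 kb away at higher coordinates held the highest Sertoli score of all contacts of these genes in the original table, 17.7, against 7.67. At lower coordinates, bins 8.67 and 3.49 kb away scored 8.58 and 8.51, and 6.97 and 10.3. With the original baits, the largest pre-granulosa difference of the whole gene group was its contact with Iqgap3, 142 kb away, at 0.47 and 5.75 (asinh difference -2.00), and this contact had no counterpart with the extended baits. The order of its counts turned to 1 more pre-granulosa call at a score of 7, with equal numbers of calls, at 50 kb and more, and with touching bins merged. Crabp1-201 had 3 Sertoli and 2 pre-granulosa calls, with a shared gene-free bin 3.65 kb away at 8.51 and 9.16, and its order turned to 1 more pre-granulosa call with equal numbers of calls.

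Rbp2, the gene of the intestinal retinol carrier, had 6 Sertoli calls and 1 pre-granulosa call. Rbp2-201 contacted the bin chr9:98415696-98420960 in Nmnat3, 72.8 kb away, at 5.97 and 3.95. Its only pre-granulosa call scored 4.30 and 6.70. Rbp7, seen in the extended table only, had 3 contacts, each of another kind. A Tmem274 promoter 21.8 kb away was shared, at 10.02 and 7.69. A Ctnnbip1 promoter 92.6 kb away was a Sertoli call only (6.45 and 0.39), and a Pik3cd promoter 219 kb away a pre-granulosa call only (0 and 5.58).

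The contacted bins were sorted by what RefSeq places in them. Of the 164 listed contacts with the original baits, 35 (21.3%) ended in the gene's own span, 79 (48.2%) in another gene and 50 (30.5%, 24.0 to 37.9) in bins with no RefSeq gene. Over all baits the shares were 29.9%, 49.7% and 20.3%. The gene-free share of all baits lay below the interval for these genes. For extended baits the gene-free share was 17.0% (13.0 to 21.9) against 11.4% over all baits. The intervals treat bins as independent, although touching bins of the same bait, as upstream of Pparg and Rxra, are not.

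Contacts between promoters can be read from the extended table, where the other end carries promoter names. Of the Sertoli calls, 97 of 215 (45.1%, 38.6 to 51.8) ended at a promoter, beside 55.2% over all baits. Of the pre-granulosa calls, 97 of 149 (65.1%, 57.2 to 72.3) did, beside 60.96%. The share over all baits lay above the interval for the Sertoli calls and inside it for the pre-granulosa calls. Of 132 listed contacts with a promoter, 89 (67.4%) were also listed when read from the other end, as were 68.2% over all baits. Of these 89, 8 had the higher score in the other cell type when read from that end, and 31 were called in a different set of cell types. The strongest shared pair joined Akr1a1 to Prdx1, the peroxiredoxin gene 36.5 kb away, at 38.4 and 33.3. Nr1i3 contacted Tomm40l and Apoa2 at 21.8 and 23.5, Pcp4l1 at 26.2 and 15.2, and the promoters of Cfap126 at 19.5 and 21.97 and at 34.3 and 14.7. Hsd3b7 contacted the promoters of Prss53 and of Vkorc1, the vitamin K epoxide reductase gene, 90.1 kb away at 19.1 and 21.4. Nr1h3 contacted Mybpc3-202 at 21.2 and 15.4. Ranked by the lower of the 2 scores, the 8 strongest pairs are these and the contact between Rxra promoters given above. Read from the genes examined here the Sertoli score was the higher one for 5 of them, and read from the other end for 4, since Akr1a1 with Prdx1 then scored 27.4 and 29.6. The widest gaps, at Cfap126-201 and Pcp4l1, were both towards Sertoli cells.

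**Figure D4:**
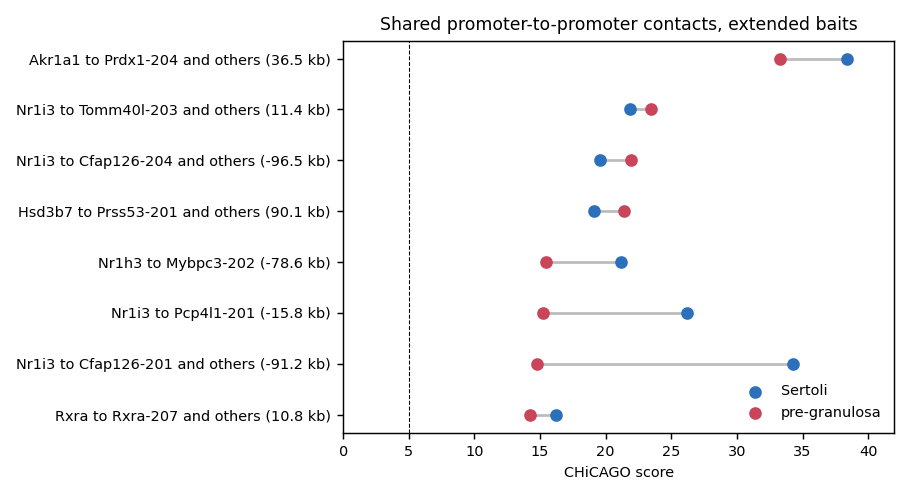
For the 8 shared promoter-to-promoter contacts with the highest lower score in the extended table, points give the CHiCAGO score in Sertoli cells (blue) and pre-granulosa cells (red), with the distance in brackets and the dashed line at 5. Akr1a1 with Prdx1 is highest in both cell types, at 38.4 and 33.3, and Nr1i3 with Cfap126-201 has the widest gap, at 34.3 and 14.7.

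Other genes of the same pathways were counted from a list of 34, of which 17 had an original bait on these chromosomes. For cholesterol supply and synthesis, 10 genes had 85 Sertoli calls, 54 pre-granulosa calls and 36 shared contacts. Of these 10, 8 had more Sertoli calls, Mvd, of the mevalonate pathway, had more pre-granulosa calls (0 and 1), and Dhcr7, the last step of cholesterol synthesis, had 6 of each. Retinoid transport and metabolism had 3 genes with 17 and 2 calls, 15 and 2 of them from Stra6, the retinol uptake receptor. For receptor coregulators, 4 genes had 27 and 7 calls, of which the coactivator gene Ncoa2 had 0 and 1. The ratio was 1.57, 8.50 and 3.86 in the 3 lists and 1.38, 2.24 and 3.10 with the extended baits. The value for the retinoid list, most of it from Stra6, moved the furthest between the tables.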

How the data were processed

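Interaction tables from capture Hi-C were used, 1 with original baits (29711 interactions) and 1 with extended baits (51777). The values are CHiCAGO scores that the authors deposited, named as such in the titles of the deposited tables, with a score cut of 5 and bins of about 5 kb. The build is mm10, per the submitters' processing notes. Read filters, tool versions and the way libraries were combined are not given in the sources used here. Depth is unknown. Cis contacts of baits on chromosomes 1 to 9 were used, and a call is a score of at least 5. Where 2 scores stand together, the Sertoli score comes first. Distances run between midpoints, as in the deposited column. Shares have 95% Wilson intervals and medians have order-statistic intervals. The 3 libraries of Sertoli cells and the 2 of pre-granulosa cells each share a column, so nothing was tested. Contacts were annotated with RefSeq gene spans and starts of GRCm38.p6. Of the original baits with a RefSeq promoter of that name, 76.55% had a start within 5 kb, all on the same chromosome. The counting was tested on simulated data (python 3.11.15, pandas 2.3.3, numpy 2.4.6, scipy 1.17.1).

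The genes and lists were chosen with earlier results of these data known. Named in full were, for each cell type, the 5 baits whose calls exceeded the other's most, the 5 contacts with the largest asinh difference in each direction, the 5 shared contacts with the highest lower score, contacts at 300 kb or more, the 8 strongest shared promoter pairs, and the baits of a list of 28 genes, of which 15 had an original and 17 an extended bait. The rest of that list was not analysed here, and a few genes and contacts that these rules select are not reported here. Hsd11b1, Nr0b2, Nr1h2, Nr4a3, Rbp2, Rbp7, Stard5, Stard7, Stard9, Stard10 and Hsd17b11 and further single contacts of named genes were added after their values were seen. Alternatives were score thresholds of 7 and 10, extended baits, equal numbers of calls (the 12025 highest scores of each cell type), a minimum distance of 50 kb, and touching bins merged.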

Additional observations from a re-analysis of the deposited data

How the results depend on the processing

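No paired analysis was possible because the scores come as 1 column per cell type, with none per numbered library, and for the same reason no library could be left out in turn. At a score of 7 the genes had 44 Sertoli and 25 pre-granulosa calls, a ratio of 1.76 (2.20 over all baits). There, 16 baits (69.6%, 49.1 to 84.4) had more Sertoli calls, against 67.3% over all baits. The interval by bait thus no longer lay above the share over all baits. At 10 there were 14 and 4 calls, a ratio of 3.50 (2.55 over all baits). Of either, 0% were shared, and the median Sertoli distance was 8.93 kb. More Sertoli calls were seen for 8 baits, more pre-granulosa calls for 1 and equal numbers for 1. Over all baits 71.1% had more Sertoli and 15.0% more pre-granulosa calls. The 71.1% lay inside the interval for these genes (49.0 to 94.3). With extended baits the calls were 215 and 149, the ratio 1.44, 43.3% of the Sertoli calls shared, and 18 baits with more pre-granulosa calls. With equal numbers of calls over the table there were 69 Sertoli calls, a ratio of 1.21 (1.0 over all baits), shares of 34.8% and 42.1% (38.3% over all baits), and 18 baits (54.5%) with more Sertoli and 11 (33.3%) with more pre-granulosa calls, against 37.9% and 46.4% over all baits, where the order is the opposite. From 50 kb on there were 61 and 22 calls, shares of 14.8% and 40.9%, and medians of 96.5 and 89.8 kb. The other 21 of 50 summary values stayed within their limits. The difference in calls changed sign for Pparg-201 (-1 at 7, -1 with extended baits, -3 with equal numbers), Akr1a1-201 (2 at 7, 1 at 10), Rxra-204 (1 with extended baits, 1 from 50 kb), Crabp1-201 (-1 with equal numbers), Crabp2-201 (-1 at 7, with equal numbers, from 50 kb and with bins merged), and with extended baits for Nr2f6-201 (-1) and Srd5a3-202 (-2). With extended baits the asinh difference changed sign for Hsd3b7-201 at 44.3 kb (0.44) and Crabp2-201 at -8.7 kb (-0.14), and 3 of 15 named contacts had no overlapping contact. The cause was not tested. The precision is limited by the unknown depth and by having 1 score per cell type. Many single-cell-type calls rest on scores between 5 and 6, and a contact listed at 0 may lack a usable value.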

Other observations

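Contacts between chromosomes entered none of the comparisons. Stard13-202 on chromosome 5, the promoter of a lipid-transfer domain protein, was listed with the bin chr6:110339282-110344308 at 11.4 in Sertoli cells and at 0 in the other cell type. The extended bait gave 9.57 and 0 for the same bin. Nr1h5-203 on chromosome 3, a promoter of the FXR-related receptor gene, was listed in the extended table with the bin chr14:44360955-44367417, which carries the promoter of Gm8229, at 0 for Sertoli and 5.37 for pre-granulosa cells.

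Bins contacted by more than 1 of the promoters examined here numbered 10 in the original table and 23 in the extended table. Most joined promoters of the same gene. Different genes met, for example, at the bins shared by Akr1b7 and Akr1b8, by Akr1b3 and Akr1b10 and by Hsd17b11 and Hsd17b13.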
